A study of Ovis aries with 3 samples.

Results

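Prostaglandins and cortisol are made by the elongating sheep conceptus and act on the uterine lining, so the transcripts of 10 enzymes of these pathways were followed in the extracellular vesicles that conceptuses shed. The enzymes were taken by symbol from the deposited table: the phospholipase PLA2G4A, the cyclooxygenases PTGS1 and PTGS2, the terminal synthases PTGES, PTGES2, PTGES3 and PTGIS, the prostaglandin dehydrogenase HPGD, and the cortisol enzymes HSD11B1 and HSD11B2. Of these 10 symbols 8 had a row, 1 each, among the 25197 rows of the table, and PTGES2 and HSD11B2 had none under those names. The vesicles came from intact sheep conceptuses (embryo and extraembryonic membranes) of day 14 of pregnancy. Each conceptus was kept for 24 h in a dish of its own, in 10 ml of medium with 10% fetal bovine serum from which exosomes had been removed. The 3 libraries formed 1 group with no control. Which conceptus gave which library is not stated, so part of the spread among the 3 libraries may be technical, and p-values cover that spread alone.

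In this pathway a phospholipase frees arachidonic acid from membranes, a cyclooxygenase turns it into prostaglandin H2, and terminal synthases convert that into the single prostaglandins, which HPGD inactivates. HSD11B1 regenerates active cortisol from cortisone, and HSD11B2 runs the inactivating reaction. In sheep the trophectoderm, the outer epithelium of the conceptus, expresses PTGS2 and HSD11B1, and prostaglandins and cortisol act there together with progesterone and interferon tau on the endometrial genes that accompany elongation. PTGES3 has a further role, since it is also known as p23, a cochaperone that joins HSP90 in the assembly of steroid receptors.

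Values are RPKM-type, that is, scaled by the authors for gene length and library depth and rounded to 1 decimal. A row counted as detected when its value was at least 1 in each of the 3 libraries. Summed values were 17480.7, 40060.3 and 9531.8 in libraries 1, 2 and 3. Depth differed less: the values of 1012 rows of U6 small nuclear RNA, a family of nearly equal length, stepped by about 0.425, 0.55 and 0.45 per read, so libraries 1 and 3 were about 1.29 and 1.22 times as deep as library 2. As a measure of background, 481 olfactory receptor rows averaged 0.216, 0.171 and 0.184, with 99th percentiles of 1.44, 1.02 and 1.74. Markers of the trophectoderm summed to 38.3, 178.9 and 37.9 over 9 rows, with 3 detected and PAG6 at 0 throughout. The keratin KRT8, which other simple epithelia also express, made up 68.7%, 77.6% and 72% of these sums, and without it they were 12, 40 and 10.6. Its fellow markers were not alike, since GATA3, a transcription factor, stood at 0.9, 0.9 and 3 and CDX2, another, at 0.5, 0.2 and 0. Those of extraembryonic endoderm summed to 10.1, 32.1 and 12.9 over 10 rows with 2 detected. Those of the uterine epithelium summed to 60.6, 170.9 and 10.9 over 9 rows with 4 detected. The 4 were LGALS15 (18.8, 74.2 and 4.5), CST6 (24.9, 49.1 and 1.1), FXYD4 and IGFBP1. Of the other uterine rows GRP stood at 0.4, 3.2 and 1.3, while PGR, ESR1, MUC1 and WNT7A did not exceed 0.5 in any library. Leukocyte markers summed to 2.3, 6.0 and 4.8 over 8 rows, with none detected and MS4A1 at 0 throughout. Of these AIF1 stood at 0.3, 2.8 and 4.1, CD74 at 1.5, 1.3 and 0.1, and CD68 at 0.1, 1.5 and 0. PTPRC, CD14, CD3D and CD3E did not exceed 0.4 in any library. The part of these cell types in the values below was not tested, and in bulk RNA fewer vesicles from a cell type and less RNA per vesicle cannot be told apart.

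PTGES3 was the sole enzyme of the 8 to be detected, against 3.89% of all rows of the table; without library 3 there were 2, with HSD11B1 added, against 7.29%. At a value of 1 or more in at least 2 libraries there were 2 of the 8 (PTGES3 and HSD11B1), against 9.02% of all rows, and in at least 1 library 5 of the 8, against 17.9%. Within single libraries, 2 of the 8 reached 1 in library 1, 5 in library 2 and 1 in library 3, against 9.37%, 13.6% and 7.88% of all rows. The median of the 8 means was 0.567, and that of all rows was 0.133. Library 2 held the highest value of 6 of the 8, with PTGS1 and PTGIS as the exceptions, against 33.6% of all rows. Among the 4519 rows that reached 1 in any library, library 2 was highest for 63.8%. It was also highest for each of the 5 enzymes that reached 1 in any library. HPGD, counted among the 6, did not reach 1.

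**Figure D1:**
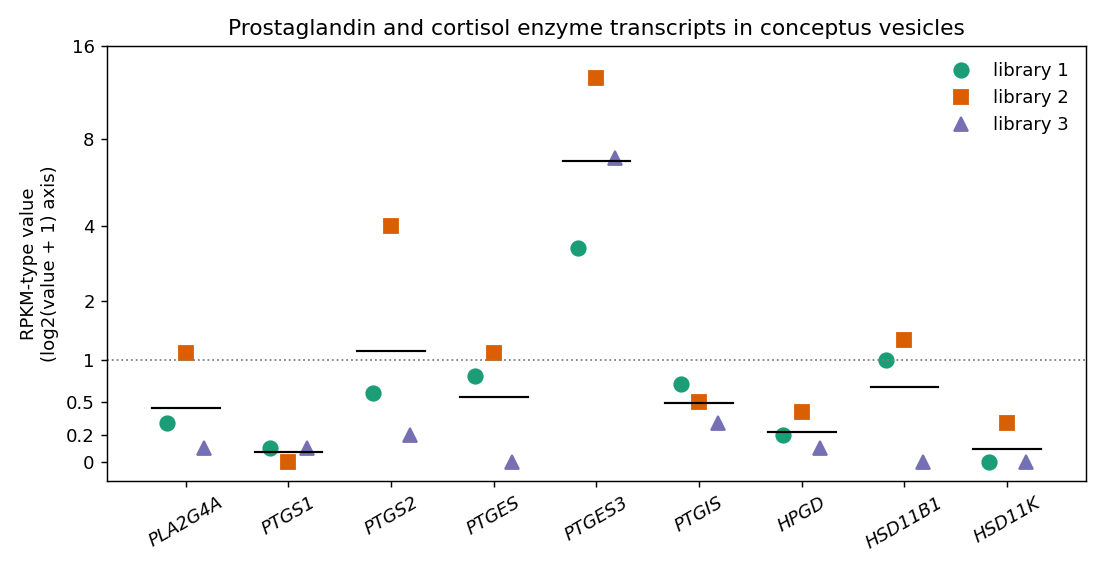
RPKM-type values of the 8 enzymes and of HSD11K in each library, on a log2(value + 1) axis. Circles, squares and triangles are libraries 1, 2 and 3, black bars are means of the plotted log2 values, and the dotted line marks the value of 1. PTGES3 lies above the line in all 3 libraries and PTGS2 in library 2 alone.

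Arachidonic acid release was represented by PLA2G4A, the cytosolic calcium-dependent phospholipase A2. It stood at 0.3, 1.1 and 0.1 in libraries 1, 2 and 3, a mean of 0.5 ± 0.529 (SD, n = 3). Library 2 was the highest, and library 3 was at the lowest value above 0 that the rounding allows. Of the olfactory receptor rows 29.1%, 1.04% and 65.5% were at or above PLA2G4A in libraries 1, 2 and 3. Its value thus exceeded most of them in libraries 1 and 2 but not in library 3, and nearly all of them in library 2 alone.

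Of the cyclooxygenases, PTGS2, the inducible form, was read in every library and PTGS1, the constitutive form, was near 0. PTGS2 stood at 0.6, 4 and 0.2 in libraries 1, 2 and 3, a mean of 1.6 ± 2.09 (SD, n = 3). Library 2 was thus 20-fold above library 3, or between 15.8-fold and 27-fold when the rounding of both values is taken into account. Against depth, 72.7 reads would lie behind the value in library 2 if the transcript were 10 times as long as U6, and 4.4 reads behind that in library 3. The value of PTGS2 exceeded those of 95.7% of all rows in library 2, 83.9% in library 1 and 70.3% in library 3. In library 2 none of the 481 olfactory receptor rows reached it, while 8.73% did so in library 1 and 31.8% in library 3.

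PTGS1 stood at 0.1, 0 and 0.1, at or below the value of 65.5% or more of the olfactory receptor rows in each library. PTGS2 was higher than PTGS1 in 3 of 3 libraries, by 0.54, 2.32 and 0.13 on the log2(value + 1) scale, which understates differences between low genes. The mean difference was 1.00 ± 1.17 (SD, n = 3; p = 0.25, two-sided exact sign-flip permutation test; 0.417 after Benjamini-Hochberg adjustment over the 5 pairs of genes compared). With 3 libraries no smaller p than 0.25 can be reached, so no pair could pass 0.05. In the RefSeq sheep annotation (ARS-UI_Ramb_v3.0) PLA2G4A is the next protein-coding gene after PTGS2 on the chromosome. Both had their highest value in library 2 and their lowest in library 3, an order also found for PTGES, HPGD and HSD11B1, against 14.8% of all rows. Of all rows 39.6%, 34.1% and 48% were at 0 in libraries 1, 2 and 3. A row at 0 in both libraries 1 and 3 cannot show this order, and its share among rows that reached 1 was not taken. The same order holds for the summed values. Scaled to a summed value of 1000000 in each library, PTGS2 and PLA2G4A (17.2, 27.5 and 10.5 in libraries 1, 2 and 3) kept it, while PTGES (45.8, 27.5 and 0), HPGD (11.4, 9.98 and 10.5) and HSD11B1 were then highest in library 1.

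Among the terminal synthases PTGES3 led by a wide margin. Cytosolic prostaglandin E synthase 3 stood at 3.3, 12.7 and 6.9 in libraries 1, 2 and 3, a mean of 7.63 ± 4.74 (SD, n = 3), and ranked 311th of 25197 rows by mean. It exceeded 97.6%, 98.5% and 99.3% of the rows of libraries 1, 2 and 3, and no olfactory receptor row reached it in any of them. As deposited its lowest and highest library differed 3.85-fold, against 20-fold for PTGS2, but with the summed values made equal these ranges were 3.83-fold and 4.76-fold, and relative to KRT8 2.76-fold and 3.93-fold. PTGES3 made up 47.1%, 60.2% and 89.6% of the summed value of the 8 enzymes, and the other 7 together came to 3.7, 8.4 and 0.8.

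PTGES, the microsomal synthase that works with PTGS2, stood at 0.8, 1.1 and 0, and no row was named PTGES2. The mean of PTGES was 0.633 ± 0.569 (SD, n = 3). In library 2 its value was equalled or passed by 1.04% of the olfactory receptor rows and in library 1 by 4.78%. PTGIS, prostacyclin synthase, stood at 0.7, 0.5 and 0.3, a mean of 0.5 ± 0.2 (SD, n = 3). Its range was 2.33-fold as deposited and 3.21-fold with the summed values made equal. Of the olfactory receptor rows 6.86% reached its value in library 1, 6.03% in library 2 and 16% in library 3. HPGD, the enzyme that begins prostaglandin breakdown, stood at 0.2, 0.4 and 0.1, where 44.1%, 12.7% and 65.5% of olfactory receptor rows lay at or above it.

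PTGES3 was above PTGS2 in each library, by 1.43, 1.45 and 2.72 on the log2(value + 1) scale. The mean difference was 1.87 ± 0.74 (SD, n = 3; exact p = 0.25 by the same permutation test, 0.417 adjusted over 5 pairs). As a ratio of the deposited values, PTGES3 was 5.5-fold above PTGS2 in library 1, 3.17-fold in library 2 and 34.5-fold in library 3, where PTGS2 was at 0.2 and the rounding allows 27.4-fold to 46.3-fold.

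**Figure D2:**
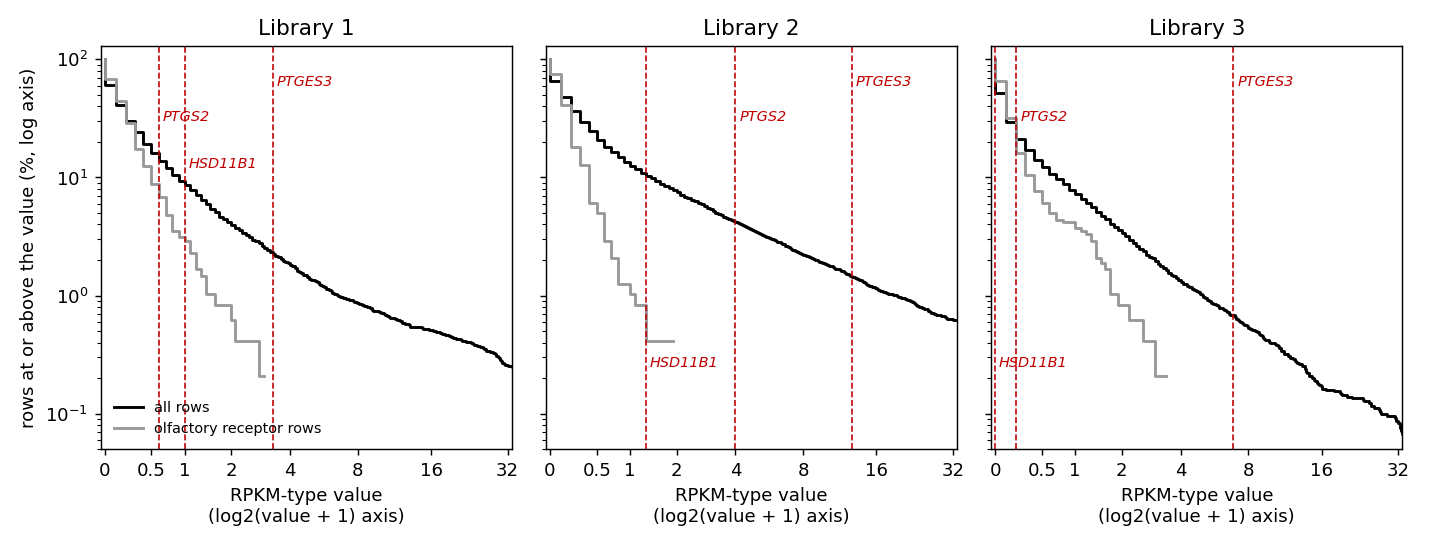
For each library, the share of rows at or above a value (log axis, %) against that RPKM-type value (log2(value + 1) axis), for all rows in black and olfactory receptor rows in grey. Dashed red lines mark PTGES3, PTGS2 and HSD11B1. PTGES3 lies beyond the grey line in each library, PTGS2 in library 2 alone, and HSD11B1 crosses it at 3.12% in library 1 and at 0.832% in library 2.

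The cortisol-regenerating enzyme HSD11B1 was present at low values in libraries 1 and 2 and listed at 0 in library 3. It stood at 1, 1.3 and 0, a mean of 0.767 ± 0.681 (SD, n = 3). Its value exceeded 90.6% of all rows in library 1 and 89% in library 2, with 15 and 4 of the 481 olfactory receptor rows at or above it. In library 1 the value of 1 was below the 99th percentile of olfactory receptor rows (1.44), and in library 2 the value of 1.3 was above it (1.02). A value of 0 in library 3 with 1 or more in both others was found for 1.25% of all rows (314), and 48% of all rows were at 0 in library 3. Such a 0 covers any value that rounds below 0.05.

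HSD11B2 had no row under that symbol, but a row named HSD11K is described as hydroxysteroid (11-beta) dehydrogenase 2, and RefSeq lists HSD11K as a synonym of HSD11B2. HSD11K stood at 0, 0.3 and 0, and 18.1% of olfactory receptor rows reached its value in library 2. It was looked for after the values had been seen and is not counted among the 8. HSD11B1 was higher than HSD11K in 2 of 3 libraries and both were listed at 0 in the remaining one. The differences were 1, 0.82 and 0 on the log2(value + 1) scale, with a mean of 0.61 ± 0.53 (SD, n = 3; exact p = 0.5 by the same permutation test, 0.625 adjusted over 5 pairs).

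Relative to HSD11B1, PTGES3 was higher in 3 of 3 libraries, by 1.10, 2.57 and 2.98 on the log2(value + 1) scale. The mean difference was 2.22 ± 0.99 (SD, n = 3; exact p = 0.25, 0.417 adjusted). PTGS2 and HSD11B1 could not be ordered. PTGS2 was lower than HSD11B1 in library 1, at -0.32, and higher in libraries 2 and 3, at 1.12 and 0.26. Their mean difference of 0.35 ± 0.73 was smaller than its spread (SD, n = 3; exact p = 0.75, 0.75 adjusted), and without library 2 it was -0.03.

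By mean level the order was PTGES3, PTGS2, HSD11B1, PTGES, then PLA2G4A and PTGIS at the same mean, HPGD and PTGS1. PTGES3 stood above PTGS2 in every library, and PTGIS above HPGD. In the pairs PTGS2 and HSD11B1, HSD11B1 and PTGES, PTGES and PLA2G4A, and PLA2G4A and HPGD, the means differed by less than the SD of the higher gene. That SD is a spread among libraries and not of the difference within a library. Within libraries 1 and 2 HSD11B1 was above PTGES, and PLA2G4A above HPGD. In library 3 HSD11B1 and PTGES were both at 0, and PLA2G4A and HPGD both at 0.1.

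The library that stood highest depended on what the values were set against. As deposited, PTGES3 was highest in library 2. With the summed value of each library scaled to 1000000, it was 188.8, 317 and 723.9 in libraries 1, 2 and 3, so that library 3 was then the highest. As a percentage of KRT8, a keratin of the trophectoderm and other simple epithelia, PTGES3 was 12.5%, 9.14% and 25.3%. PTGS2 was 34.3, 99.9 and 21 after that scaling and 2.28%, 2.88% and 0.733% of KRT8, with library 2 highest and library 3 lowest on every scale. HSD11B1 was 57.2, 32.5 and 0 after scaling and 3.8%, 0.936% and 0% of KRT8, which put library 1 first on both scales and library 2 first only as deposited. Set against TP-1, an interferon tau gene, PTGES3 was at 49.3%, 48.5% and 147% of its value, and PTGS2 at 8.96%, 15.3% and 4.26%.

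**Figure D3:**
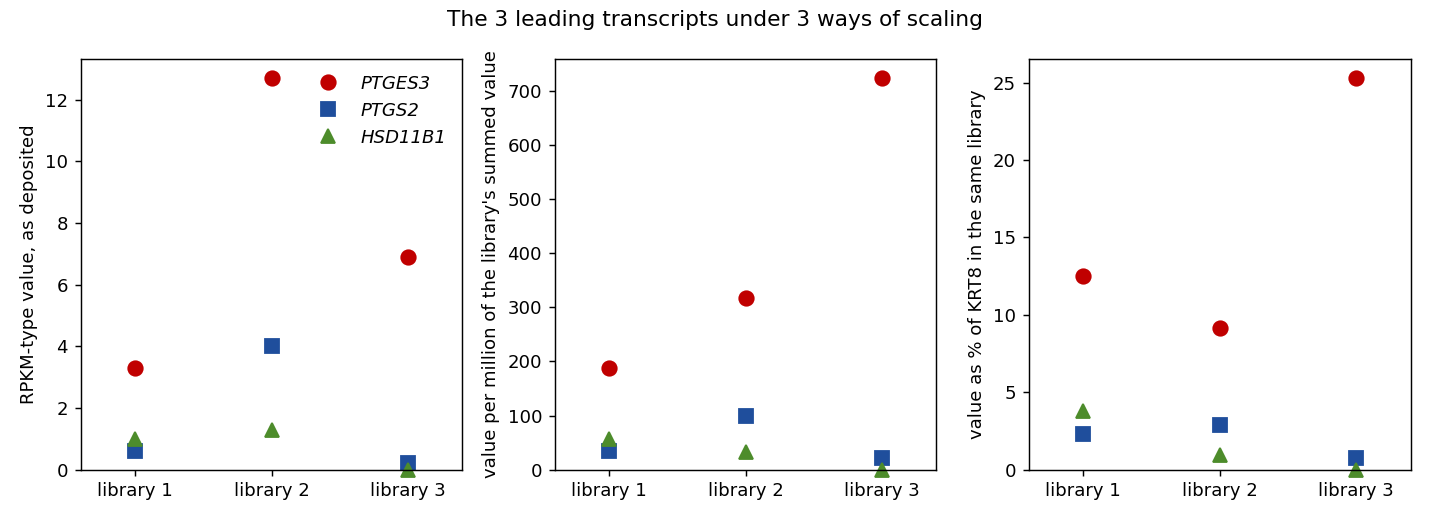
PTGES3, PTGS2 and HSD11B1 in each library as deposited (RPKM-type values), scaled to a summed value of 1000000, and as % of KRT8 in the same library, on linear axes from 0. PTGES3 is highest in library 2 as deposited and in library 3 on the other scales, whereas PTGS2 is highest in library 2 on all of them.

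The other genes, in 7 lists that include the HSP90 chaperone machine, had 89 rows. Of these 6 (6.74%) were detected, against 3.89% of all rows. The HSP90 list alone gave 3 of the 6 from its 11 rows. The phospholipase, glucocorticoid and steroid enzyme lists gave 1 each, and the eicosanoid enzyme, receptor and transporter lists 0. With library 3 left out, 14 (15.7%) of the 89 rows, HSP90 rows included, reached 1 in both others, against 7.29% of all rows. Other phospholipases A2 and their regulators had 16 rows with 1 detected and a median mean of 0.183. The detected row was PLA2G2D, a secreted phospholipase A2, at 2.9, 3 and 1.6 in libraries 1, 2 and 3. Its value in library 3 was below the 99th percentile of olfactory receptor rows there (1.74). ANXA1, a calcium-binding inhibitor of phospholipase A2, stood at 6.3, 16.5 and 0.3, and PLA2G7, which inactivates platelet-activating factor, at 3.8, 9.9 and 0. Both of these were lowest in library 3. The deposited sum was lowest there too, with that of library 1 at 1.83 times its value. The part of the sum in these values was not tested.

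Other eicosanoid enzymes had 14 rows with none detected and a median mean of 0.15. MGST2, a microsomal glutathione transferase of the leukotriene branch, stood at 1.4, 3.5 and 0 and its relative MGST3 at 0.9, 2 and 0.6. PTGR1, which acts on prostaglandin breakdown products and on leukotriene B4, stood at 2.1, 1.1 and 0.3. The platelet synthase TBXAS1 and the prostaglandin D synthase HPGDS did not exceed 0.1 in any library.

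Of the genes for receiving or moving prostaglandins, none of 13 receptor rows and none of 4 transporter rows reached 1 in any library, against 17.9% of all rows. Their median means of 0.133 and 0.117 were at the level of all rows (0.133). PTGER3, a prostaglandin E receptor, stood at 0.5, 0.1 and 0.2, and PPARA, a nuclear receptor, at 0.3, 0.2 and 0.3. Of the receptor rows found by description, the nuclear receptor PPARG (row PPARG2) stood at 0.1, 0.8 and 0.4, the highest mean of all receptor rows. The prostaglandin E receptor EP4, in a row named PGE2R-EP4, stood at 0.1, 0.5 and 0.2. SLCO3A1, which carries prostaglandins, stood at 0.2, 0.3 and 0.4, SLCO4A1, an organic anion carrier, at 0.1, 0.2 and 0.1, and the main prostaglandin carrier SLCO2A1 at 0, 0.3 and 0.

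On the glucocorticoid side, 1 of 12 rows was detected and the median mean was 0.167. It was SGK1, a kinase induced by serum and glucocorticoids, at 5.2, 6.4 and 1.2. The value of SGK1 in library 3 was below the 99th percentile of olfactory receptor rows there (1.74). DUSP1, a phosphatase that glucocorticoids induce, stood at 0.6, 3.1 and 0. The receptor NR3C1 (0.2, 0.3 and 0.2), its target FKBP5 (0.4, 0.2 and 0.1) and H6PD, which supplies the cofactor of HSD11B1 (0.1, 0.2 and 0.1), were all low. Among steroid enzymes 1 of 19 rows was detected and the median mean was 0.267. It was HSD17B1, which makes estradiol from estrone, at 5.1, 16.2 and 1.6. The value of HSD17B1 in library 3 was also below that 99th percentile. HSD17B10, a mitochondrial dehydrogenase, stood at 1.5, 8.8 and 0.5, and FDX1, an electron carrier of mitochondrial steroid enzymes, at 0.5, 2.4 and 0.8.

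The HSP90 chaperone machine that PTGES3 joins had the highest share of detected rows among the 7 lists, with 3 of 11 and a median mean of 1.233, against 3.89% detected and a median mean of 0.133 over all rows. HSP90AB1, a cytosolic HSP90, stood at 5.5, 20.7 and 3.3, and the HSP70 family member HSPA8 at 5.9, 19.5 and 2.3. The HSP90 activator AHSA1 stood at 1, 1.5 and 1.2. AHSA1 was below the 99th percentile of olfactory receptor rows in library 1 (1.44) and library 3 (1.74). HSP90AB1 and HSPA8 were above it in each library. HSP90B1, the HSP90 of the endoplasmic reticulum, stood at 1.5, 4.3 and 0.5 and the cochaperone CHORDC1 at 1.2, 4.8 and 0. Some genes of the lists appear in the table under another name, and with those found by description the count was 5 of 15. The added ones were HSP90AA1 (row HSPCA, 3.3, 14.9 and 2.7) and DNAJB1 (2.1, 4.2 and 1.3). DNAJB1 was also below the 99th percentile of olfactory receptor rows in library 3. PTGES3 had 0.6, 0.614 and 2.09 times the value of HSP90AB1 in libraries 1, 2 and 3. In library 3 none of the 15 rows exceeded PTGES3, and in libraries 1 and 2 there were 2 and 3 that did.

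**Figure D4:**
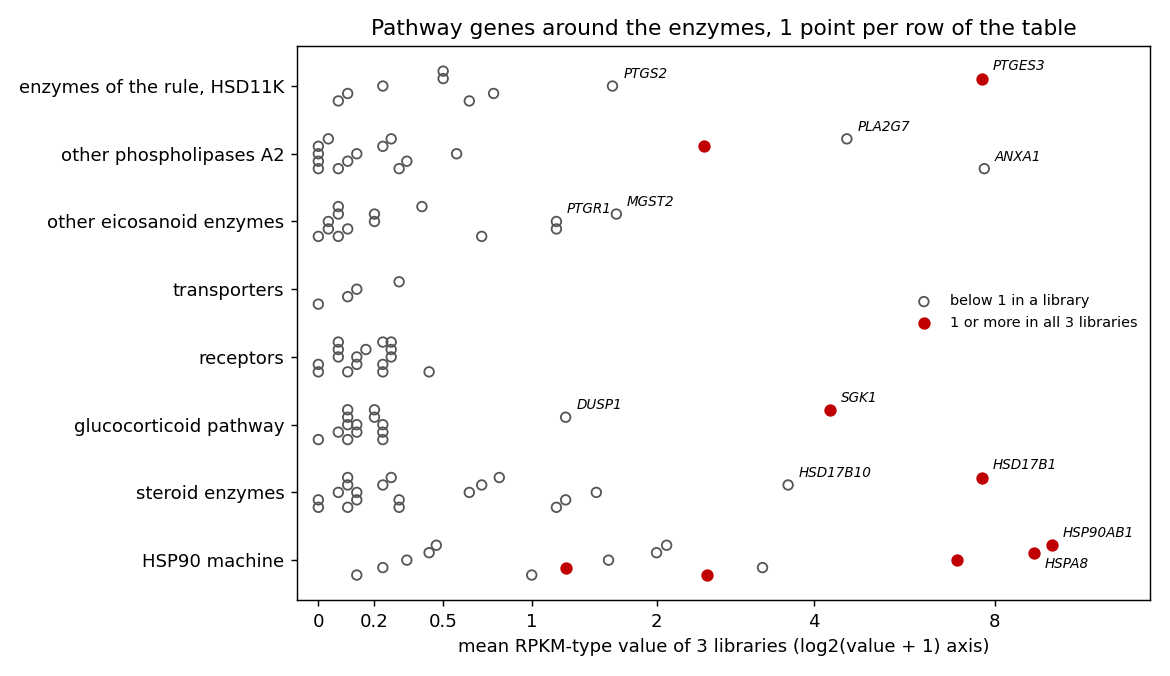
Mean RPKM-type value over 3 libraries (log2(value + 1) axis) of each row of the enzymes and of 7 pathway lists, with rows found by description included. Filled red points reached 1 in all 3 libraries and open points did not. Receptor and transporter rows all lie below a mean of 0.5, and the HSP90 machine holds 5 filled points.

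Rows with values most like those of each leading enzyme were sought by the Euclidean distance of log2(value + 1) over the 3 libraries. The search covered 15335 other rows with a symbol, with olfactory receptor and small RNA rows left out. PTGES3 had few: 2 rows lay within a distance of 0.25. These were SOLD1 (3.1, 11.7 and 7) at 0.13 and ATP6V1F, a subunit of the vacuolar proton pump (3.2, 13.7 and 7.4), at 0.139, followed by CCT7, ARF4 and UBL4A between 0.419 and 0.455. PTGS2 had 10 such rows, led by HNRNPA1 (0.6, 4.4 and 0.2), HSP70_2 (0.6, 3.6 and 0.2), TTC1, MSMO1 and BTG3 at distances of 0.111 to 0.186. The genes HNRNPA1 and HSP70 have near-identical copies, and the division of reads among these is uncertain. HSD11B1 had 86, and SUPT4H1 had the same values in all 3 libraries, with TMEM150A, AS3MT, CDK5 and BIN3 next. Likeness over 3 rounded values near 1 is thus common, and the distances are a description.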

How the data were processed

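Total RNA of vesicles precipitated from filtered medium (0.2 µm) was made into SMART-Seq v4 libraries (full-length cDNA) from 5 ng and sequenced as paired reads of 50 bp, per the labels' protocols. The authors deposited 1 table of RPKM-type values per gene (RPKM or FPKM, a unit taken from the values because the header names none), with Oar_v3.1 as the genome build per the submitters' processing notes. No aligner or counting program is named in the sources used here. The authors' own mean column was not used for results. Gene lengths were not used here, so reads were not recovered, no count model was fitted and depth rests on the U6 steps, which are approximate.

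The enzymes, the gene lists and the tests were chosen with earlier results of these data known. Library numbers follow the order of the samples in the labels, and columns were matched by title. Differences between genes were taken within each library as log2(value + 1) and tested with an exact sign-flip permutation test in Python 3.11.15 (numpy 2.4.6, pandas 2.3.3). The U6 step and the search for near rows were checked on simulated data, and the permutation test on short sets of made-up values. Pairs with a symbol that had no row were not made, and the pair with HSD11K was added after the values were seen. No filter on low values was applied. Genes named were all rows of the 10 symbols, each list's detected rows and its leading 2 others (ties included), and the 5 rows nearest to each leading enzyme. Names beyond this rule (TBXAS1, HPGDS, SLCO2A1, H6PD, CYP11A1, HSD17B11, STAR and rows found by description) were chosen after their values were seen. Alternatives were other detection values, numbers of libraries, pseudocounts, a scaling to equal sums and leaving out each library.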

Additional observations from a re-analysis of the deposited data

How the results depend on the processing

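Of the 8 enzymes 1 (PTGES3) was detected, and this count was also 1 at detection values of 0.5 and 2 and after scaling to equal sums. It was 2 with at least 2 libraries, 5 with at least 1, and 1 to 2 with a replicate left out, the 2 being reached without replicate 3. The count of 6 detected rows in the other lists became 13 at a detection value of 0.5, 2 at a detection value of 2 and 8 with rows found by description, and ranged from 6 to 14 with a replicate left out, the highest without replicate 3. PTGS2 minus HSD11B1 ranged from -0.0294 (without replicate 2) to 0.69 when a replicate was left out, and kept its sign under the other alternatives. Leaving out a replicate gave 1.44 to 2.09 for PTGES3 minus PTGS2, 1.84 to 2.78 for PTGES3 minus HSD11B1, 0.33 to 1.43 for PTGS2 minus PTGS1 and 0.41 to 0.91 for HSD11B1 minus HSD11K. With pseudocounts of 0.1 and 0.5 these differences grew and kept their sign, since a smaller added constant widens log2 differences between low values. Scaling to equal sums gave 2.14 for PTGES3 minus PTGS2 and 2.51 for PTGES3 minus HSD11B1, both higher than in the main setting. It gave lower values of 0.86 for PTGS2 minus PTGS1 and 0.58 for HSD11B1 minus HSD11K. The cause of the shifts on scaling or on leaving out a replicate was not tested. Genes were paired within each library, and no groups could be compared because there is 1 group. Values near 0.1 rest on few reads and on rounding, which limits every statement on PTGS1, HPGD and the receptors.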

Other observations

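Steroid enzymes outside the cortisol step differed in which library held their highest value. The row 3BHSD, described as 3 beta-hydroxysteroid dehydrogenase, which makes progesterone, and listed by RefSeq as a synonym of HSD3B1, stood at 0.2, 4.1 and 0.1 in libraries 1, 2 and 3, beside 0.6, 4 and 0.2 for PTGS2. CYP11A1, which starts steroid synthesis from cholesterol, stood at 0.8, 0.5 and 2.2, and HSD17B11, a dehydrogenase found on lipid droplets, at 0.1, 0.5 and 1.8, both highest in library 3. STAR, which brings cholesterol to CYP11A1, stood at 0.3, 0.4 and 0.2. These rows were picked after their values were seen, none was at 1 or more in all 3 libraries, and no test was run on them.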
